A study of Mus musculus with 28 samples.

Results

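Cdh1, Cdh2, Cdh3, Cdh11, Epcam, Esrp1, Esrp2, Grhl2, Ovol2 and Elf3 form a set of 10 mouse genes of cell adhesion and epithelial identity, taken by gene symbol from the 31673 genes of the series-wide RNA-seq tables. The study asked how fibroblasts change when chemicals turn them into an expandable endoderm-lineage cell (ciEPC) and then into a hepatocyte-like cell (ciHep). RNA was measured in 28 libraries of 9 groups. The chemicals were not given in the sources used here. The derived groups were MNF_ciHep (2 libraries) and MEF_ciHep (3 libraries), made from ciEPC of passages 3 to 10; MNF_ciEPC (2 libraries, passages 2 and 3); MEF_ciEPC (10 libraries, passages 1 to 22, in a numbered series 1 of 6 libraries and a series 2 of 4); and ESC_EPC (2 libraries, passages 10 to 15), derived from embryonic stem cells. Their references were MNF (2 libraries), neonatal dermal fibroblasts at passage 2; MEF (3 libraries), embryonic fibroblasts of E13.5 at passage 2; ESC (2 libraries), OG2 embryonic stem cells at passage 5; and pHep (2 libraries), hepatocytes of adult liver at passage 0. All cells carried the Oct4-GFP transgene. Cells of neonatal dermal origin and pHep came from Oct4-GFP mice on a CBA/CaJ X C57BL/6J background, and the other groups from a cross of that line to 129Sv/Jae females. The source name of MNF_ciEPC reads MEF, against its title and cell type, and the cell type was followed. The labels do not say whether libraries of a group came from separate cultures or animals, so p-values measure only the spread between these samples. In the main fit that spread was estimated over all 9 groups together, not from the compared groups alone.

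Cadherins are calcium-dependent adhesion proteins that bind like partners on neighbouring cells. Epithelia use E-cadherin (Cdh1), whereas fibroblasts use N-cadherin (Cdh2) and cadherin-11 (Cdh11), and the exchange of one for the other accompanies transitions between the mesenchymal and the epithelial state. The Snail, Zeb and Twist proteins repress Cdh1 through E-box sequences, while GRHL2 and OVOL2 maintain epithelial genes and the ESRP proteins set the epithelial splicing pattern. Adult hepatocytes are epithelial cells that carry both E-cadherin and N-cadherin and little EpCAM, which marks bile duct and liver progenitor cells instead.

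Among the RefSeq promoter tables at hand (GRCm38.p6), 3 of the 10 genes had an entry, Epcam, Ovol2 and Elf3. The window of Ovol2 held 0 bases upstream of annotated exons and is not shown. For Epcam and Elf3, both nearly silent in fibroblasts and abundant in every ciEPC library, the stretches upstream of annotated exons are shown. They were searched for the E-box CACCTG on both strands (CAGGTG when reversed), the letters that Snail and Zeb proteins bind, and for ACCGGT, a palindrome and the core bound by grainyhead-like proteins. The motifs share no overlap, and capitals mark the matches. Epcam, chr17:87635729-87635978, plus strand, 5′ to 3′, and Elf3, chr1:135258569-135258722, minus strand, 5′ to 3′, read:
Epcam: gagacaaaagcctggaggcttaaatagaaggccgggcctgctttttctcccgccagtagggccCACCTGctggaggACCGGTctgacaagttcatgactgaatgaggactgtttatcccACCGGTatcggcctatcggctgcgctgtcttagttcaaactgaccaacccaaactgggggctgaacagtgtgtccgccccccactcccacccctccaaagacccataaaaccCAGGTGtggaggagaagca
Elf3: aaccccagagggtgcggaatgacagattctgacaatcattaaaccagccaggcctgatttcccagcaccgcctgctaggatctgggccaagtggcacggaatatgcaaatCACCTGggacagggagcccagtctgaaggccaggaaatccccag
In Epcam the E-box letters lay 187 to 182 and 19 to 14 bases before the start, and ACCGGT lay 174 to 169 and 131 to 126 bases before it. In Elf3 the E-box letters lay 140 to 135 bases before the RefSeq start, which lies inside an annotated exon; the 96 bases next to that start are in the exon and are not shown. Over 32851 promoter windows of 250 bases, 17.2% held the E-box letters and 1.86% held ACCGGT, and a match is a description of letters, not of binding.

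In GRCm38, Cdh1 (chr8:106603351-106670246) and Cdh3 (chr8:106510891-106557297) are neighbours on the plus strand, 46053 bases apart. Cdh11 (chr8:102632095-102785642) and Esrp2 (chr8:106130319-106136974) lie on the minus strand of the same chromosome. Epcam is at chr17:87635979-87651129, Esrp1 at chr4:11331933-11386783, Grhl2 at chr15:37233036-37363569, Ovol2 at chr2:144305175-144332146, Elf3 at chr1:135253575-135258568 and Cdh2 at chr18:16588877-16809246. Genes counted on the opposite strand overlap Cdh2, Esrp1, Esrp2, Grhl2, Ovol2 and Elf3. The labels do not state strand, so reads of those 6 genes and of their antisense partners cannot be told apart.

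Libraries held 1439670 to 6133147 counts. The MEF_ciEPC library of series 2 at passage 22 stood apart from the others. Its 6 pluripotent stem cell markers summed to 13333 TPM (a length-corrected level scaled within a library), against 5.28 to 56.7 TPM in the other 9 MEF_ciEPC libraries, and its 6 endoderm progenitor markers to 4.16 TPM, against 1477 to 3119 TPM. In the 2 ESC libraries the pluripotent markers summed to 8673 and 8889 TPM. The MNF_ciHep libraries went against their label: 9 hepatocyte markers summed to 38.5 and 130.5 TPM, with Serpina1a, Cyp2e1 and Cps1 at 0, against 11662 to 25341 TPM in MEF_ciHep and 16300 to 27514 TPM in pHep. Their 10 fibroblast markers summed to 4514 and 1795 TPM, against 4.42 to 15.7 TPM in MEF_ciHep, 37.2 and 58.3 TPM in MNF_ciEPC and 29780 to 31142 TPM in MNF. In the deposited tables gene length exceeded effective length by about 50.5 bases in MEF_ciEPC and both ciHep groups and by 49.5 and 50.5 bases in pHep. The gap was 74.5 bases in fibroblasts and MNF_ciEPC, 74.3 and 74.5 bases in ESC and 187 to 196 bases in ESC_EPC. Library make-up and group cannot be told apart where these differ. Since whole cultures were sequenced, fewer cells of a type and less RNA per cell cannot be told apart either.

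Genes were called where edgeR's quasi-likelihood test with Benjamini-Hochberg adjustment over 16061 genes gave a p under 0.05 with at least a 2-fold change; each MEF_ciEPC series was summed to 1 sample. In MEF_ciEPC relative to MEF, 7 of the 10 genes were called higher (17.6% of all genes were) and 3 lower (15.8% of all genes). In MNF_ciEPC relative to MNF, 7 were higher (18.4% of all genes) and 3 lower (21.9% of all genes). In each comparison the genes that rose were Cdh1, Epcam, Esrp1, Esrp2, Grhl2, Ovol2 and Elf3, and those that fell were Cdh2, Cdh3 and Cdh11. The levels of each gene follow in TPM, by role.

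**Figure D1:**
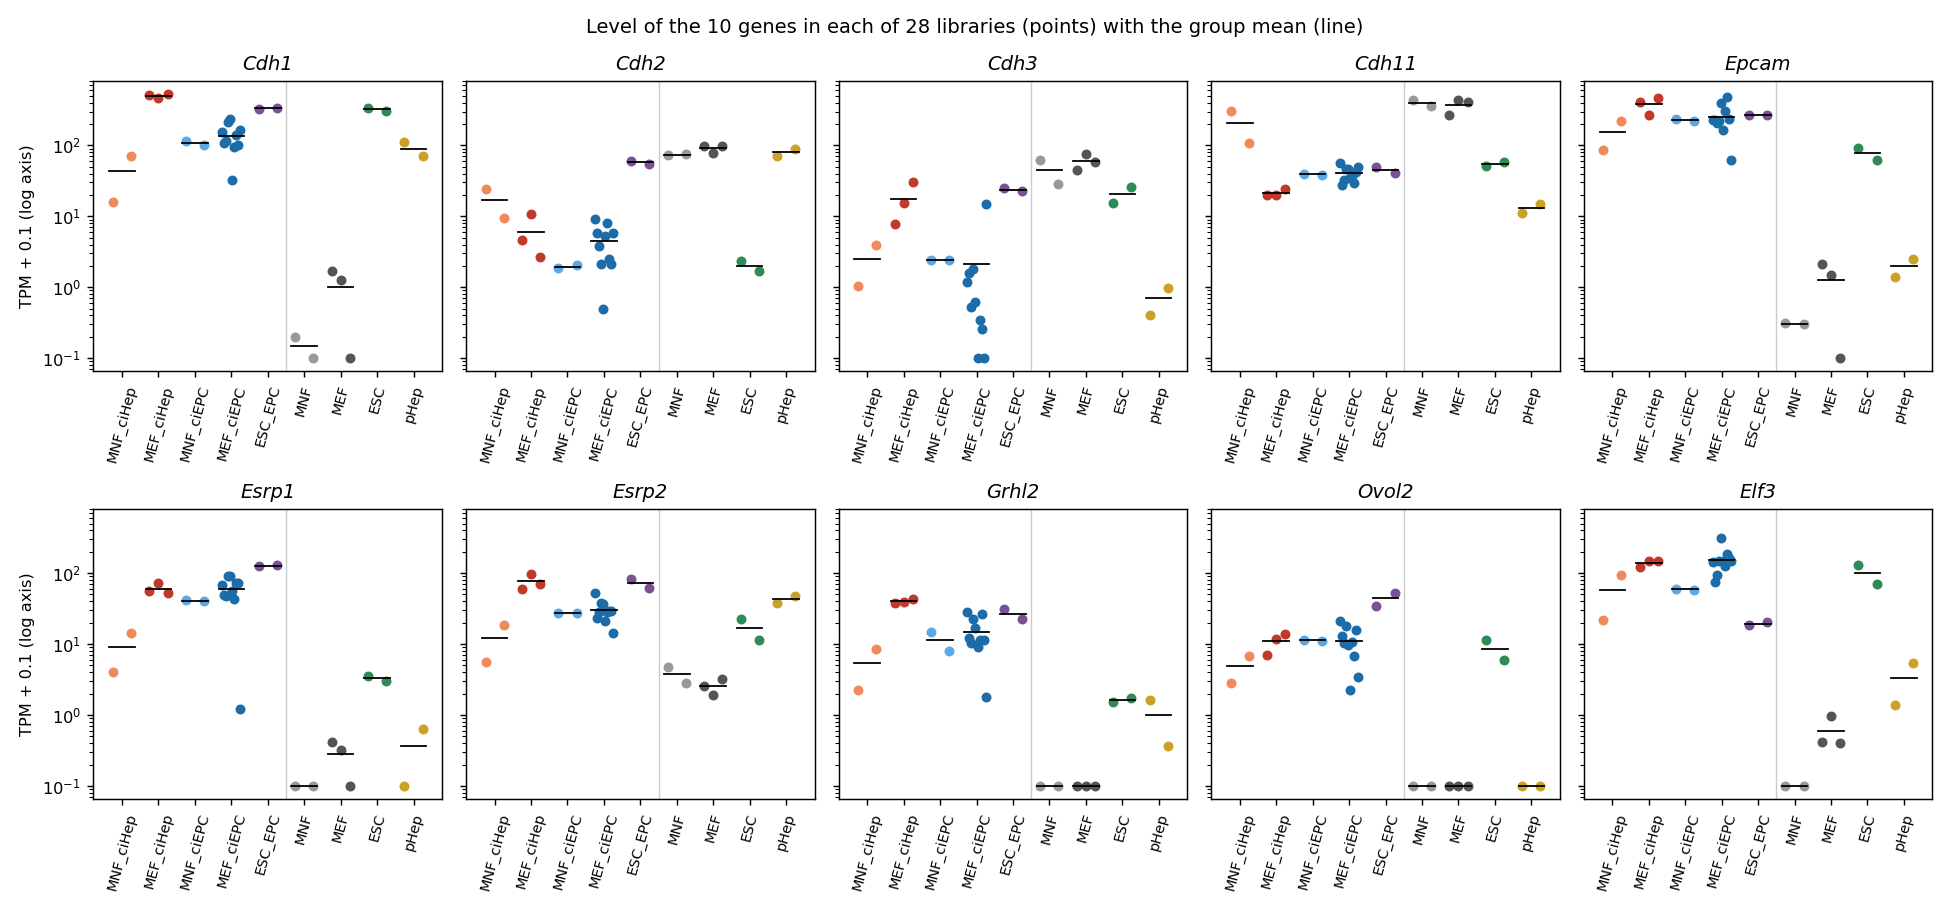
Level of each of the 10 genes as TPM + 0.1 on a log axis, with 1 point per library, a line at the group mean, derived groups to the left and their references to the right. Cdh1, Epcam and the regulators are low in MNF and MEF (Epcam at most 2.05 TPM) and high in all ciEPC groups (Epcam at least 62.6 TPM), and Cdh2, Cdh3 and Cdh11 run the other way between those groups.

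Cdh1 encodes E-cadherin, the classical cadherin of epithelial adherens junctions. Its level was 16.0 and 69.8 TPM in MNF_ciHep and 522, 459 and 527 TPM in MEF_ciHep. It was 115 and 101 TPM in MNF_ciEPC, 32.9, 127 and 234 TPM (lowest, median and highest of 10 libraries) in MEF_ciEPC, and 327 and 339 TPM in ESC_EPC. It was 0.10 and 0 TPM in MNF, 1.59, 1.18 and 0 TPM in MEF, 335 and 308 TPM in ESC and 110.2 and 69.8 TPM in pHep. All 23 libraries outside the fibroblasts lay above all 5 fibroblast libraries. Ordered by mean, the groups ran MEF_ciHep, ESC_EPC, ESC, MEF_ciEPC, MNF_ciEPC, pHep, MNF_ciHep, MEF and MNF, and neighbours overlapped except MEF_ciHep with ESC_EPC, ESC with MEF_ciEPC, and MNF_ciHep with MEF. Cdh1 rose 175-fold in MEF_ciEPC relative to MEF (log2 7.45 ± 0.64 SE; edgeR adjusted p = 2.5e-07), and the log2 value was 8.70 without MEF replicate 2. MNF held 1 count in all, so the MNF_ciEPC to MNF ratio of 2095 (edgeR adjusted p = 5.15e-07) had an exact 95% counting interval of 376 to 82790. Intervals of this kind, and limits from a count of 0, cover counting error only. The fitted log2 value, 10.71, was 13.11 without MNF replicate 1, which leaves 0 counts and makes that value no bound, and 9.95 without MNF replicate 2.

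Cdh2 encodes N-cadherin, the classical cadherin of fibroblasts and neurons, also present in hepatocytes. It stood at 24.0 and 9.46 TPM in MNF_ciHep and at 4.49, 10.8 and 2.56 TPM in MEF_ciHep. It stood at 1.74 and 1.96 TPM in MNF_ciEPC, at 0.40, 4.38 and 9.10 TPM (lowest, median, highest) in MEF_ciEPC and at 60.6 and 54.6 TPM in ESC_EPC. In the references it stood at 73.5 and 74.6 TPM in MNF, at 98.7, 79.2 and 96.5 TPM in MEF, at 2.22 and 1.6 TPM in ESC and at 71.5 and 87.7 TPM in pHep. The fibroblasts and pHep were the highest and overlapped as MEF, pHep and MNF in that order. ESC_EPC followed alone, clear of MNF above and of MNF_ciHep below. MNF_ciHep, MEF_ciHep, MEF_ciEPC, ESC and MNF_ciEPC formed an overlapping low series. Cdh2 was 24.7-fold lower in MEF_ciEPC than in MEF (log2 -4.62 ± 0.44 SE; edgeR adjusted p = 7.65e-07) and 40.5-fold lower in MNF_ciEPC than in MNF (log2 -5.34 ± 0.50 SE; edgeR adjusted p = 5.37e-07).

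Cdh3 encodes P-cadherin, a classical cadherin of basal epithelial layers and placenta. Its TPM was 0.95 and 3.86 in MNF_ciHep and 7.76, 15.1 and 30.1 in MEF_ciHep. In MNF_ciEPC it was 2.34 and 2.31, in MEF_ciEPC 0, 0.475 and 14.6 (lowest, median, highest), and in ESC_EPC 24.7 and 22.9. In MNF it was 61.9 and 28.4, in MEF 44.7, 75.5 and 57.6, in ESC 15.3 and 26.2, and in pHep 0.30 and 0.89. Ordered by mean, the groups ran MEF, MNF, ESC_EPC, ESC, MEF_ciHep, MNF_ciHep, MNF_ciEPC, MEF_ciEPC and pHep, and neighbours overlapped except MNF with ESC_EPC and MEF_ciHep with MNF_ciHep. MEF_ciHep, at 7.76 to 30.1 TPM, also reached above the lower MNF library. The highest MEF_ciEPC value belonged to the library of series 2 at passage 22, and the other 9 spanned 0 to 1.72 TPM. Cdh3 was 34.5-fold lower in MEF_ciEPC than in MEF (log2 -5.11 ± 0.67 SE; edgeR adjusted p = 1.69e-05), and the log2 value was -6.86 without that library, -4.26 without series 1 and -6.37 without series 2. It was 21.0-fold lower in MNF_ciEPC than in MNF (log2 -4.39 ± 0.69 SE; edgeR adjusted p = 7.19e-05), with a log2 value of -3.68 without MNF replicate 1.

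Cdh11 encodes cadherin-11, a mesenchymal cadherin first known from osteoblasts. It measured 303 and 109.7 TPM in MNF_ciHep and 19.8, 19.99 and 23.8 TPM in MEF_ciHep. It measured 39.8 and 38.7 TPM in MNF_ciEPC, 27.9, 39.1 and 56.2 TPM (lowest, median, highest) in MEF_ciEPC and 49.8 and 40.1 TPM in ESC_EPC. It measured 436 and 358 TPM in MNF, 271, 440 and 403 TPM in MEF, 51.2 and 58.6 TPM in ESC and 11.03 and 14.6 TPM in pHep. MNF, MEF and MNF_ciHep overlapped at the top, where MNF_ciHep replicate 1 lay within the MEF range. ESC came next by mean, then ESC_EPC, MEF_ciEPC, MNF_ciEPC, MEF_ciHep and pHep. MEF_ciEPC overlapped ESC, ESC_EPC and MNF_ciEPC, while MEF_ciHep lay below all of these and above pHep. Cdh11 was 10.9-fold lower in MEF_ciEPC than in MEF (log2 -3.44 ± 0.32 SE; edgeR adjusted p = 5.83e-07) and 11.6-fold lower in MNF_ciEPC than in MNF (log2 -3.54 ± 0.33 SE; edgeR adjusted p = 5.54e-07). Unlike Cdh2 and Cdh3, it kept at least 27.9 TPM in every ciEPC library.

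As shares of the summed TPM of the 4 cadherins, Cdh1 made up 4.64% and 36.2% in MNF_ciHep, 90.3% to 94.2% in MEF_ciHep, 70.1% and 72.3% in MNF_ciEPC, 45.3% to 83.1% in MEF_ciEPC and 70.8% and 74.2% in ESC_EPC. In the references it made up at most 0.018% in MNF, at most 0.382% in MEF, 78.1% and 83.0% in ESC and 40.4% and 57.1% in pHep. In the ciEPC groups the rest was mostly Cdh11. The lowest Cdh1 share of MEF_ciEPC was in series 1 at passage 22, where Cdh11 held 47.6%. In ESC_EPC, by contrast, Cdh2 held 11.97% and 13.1%, and in pHep it held 37.1% and 50.7%. In MNF_ciHep, Cdh11 held most of the sum, at 88.1% and 56.9%, against 76.3% and 77.7% in MNF.

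**Figure D2:**
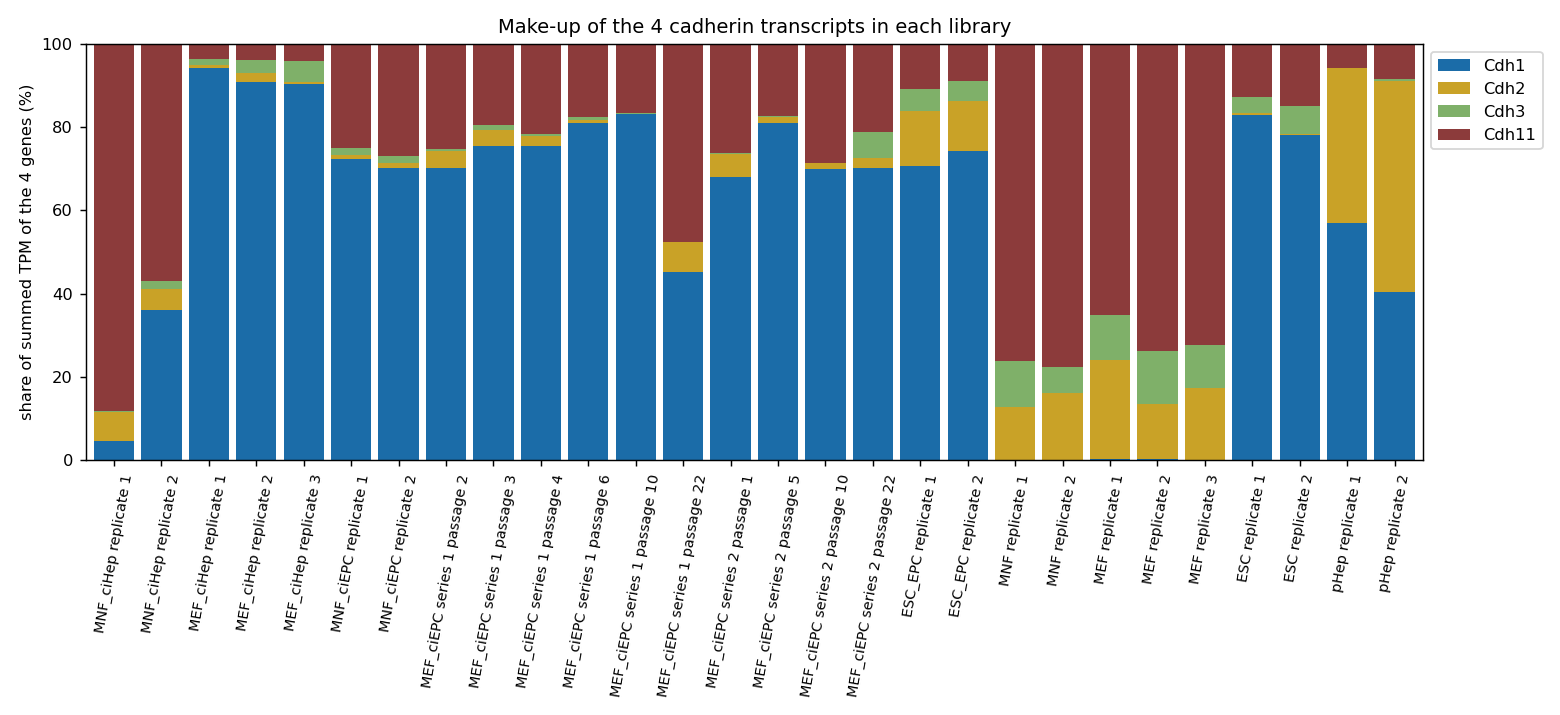
Stacked bars, 1 per library, of the share of Cdh1, Cdh2, Cdh3 and Cdh11 in the summed TPM of the 4 genes (percent). Cdh1 fills over 90% of the bar in the 3 MEF_ciHep libraries, 4.64% and 36.2% in MNF_ciHep and under 1% in every fibroblast library, and pHep is split between Cdh1 and Cdh2.

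Epcam encodes the epithelial cell adhesion molecule, a surface protein of most simple epithelia and of liver progenitors that is lost from mature hepatocytes. Its level was 85.3 and 221 TPM in MNF_ciHep and 408, 269.8 and 463 TPM in MEF_ciHep. It was 238 and 224 TPM in MNF_ciEPC, 62.6, 229 and 477 TPM (lowest, median, highest) in MEF_ciEPC, and 267 and 269 TPM in ESC_EPC. It was 0.21 and 0.20 TPM in MNF, 2.05, 1.41 and 0 TPM in MEF, 92.9 and 62.3 TPM in ESC and 1.30 and 2.43 TPM in pHep. All derived and stem cell libraries lay above all fibroblast and pHep libraries. The order of means was MEF_ciHep, ESC_EPC, MEF_ciEPC, MNF_ciEPC, MNF_ciHep, ESC, pHep, MEF and MNF, and neighbours overlapped except MEF_ciHep with ESC_EPC, MNF_ciEPC with MNF_ciHep, and ESC with pHep; MEF_ciEPC, the widest, also reached the MEF_ciHep, MNF_ciHep and ESC ranges. The lowest MEF_ciEPC value was that of series 2 at passage 22, and the other 9 spanned 164 to 477 TPM. Epcam rose 191-fold in MEF_ciEPC relative to MEF (log2 7.58 ± 0.52 SE; edgeR adjusted p = 4.02e-08). For MNF_ciEPC to MNF the ratio of counts was 1012, with an exact 95% counting interval of 279.8 to 8360 (edgeR adjusted p = 8.25e-08).

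Esrp1 and Esrp2 encode RNA-binding proteins that direct epithelial alternative splicing. Esrp1 was at 3.92 and 14.1 TPM in MNF_ciHep, at 55.8, 72.2 and 52.1 TPM in MEF_ciHep, at 41.5 and 39.9 TPM in MNF_ciEPC and at 125 and 130.4 TPM in ESC_EPC. In MEF_ciEPC its lowest, median and highest values were 1.10, 61.8 and 91.8 TPM. It was at 0 in both MNF libraries, at 0.32, 0.22 and 0 TPM in MEF, at 3.45 and 2.94 TPM in ESC and at 0 and 0.53 TPM in pHep. The lowest MEF_ciEPC value, below both ESC libraries, was in series 2 at passage 22, and the other 9 spanned 43.3 to 91.8 TPM. Without that library the groups fell into separate tiers: ESC_EPC, then the overlapping MEF_ciHep and MEF_ciEPC, then MNF_ciEPC, then MNF_ciHep, then ESC, and last pHep, MEF and MNF together. With it, MEF_ciEPC spanned the MNF_ciEPC, MNF_ciHep and ESC values. The MEF_ciEPC to MEF ratio of counts was 339, with an exact 95% counting interval of 116 to 1646 (edgeR adjusted p = 4.52e-08), and the fitted log2 value of 8.23 was 8.95 without MEF replicate 2. With 0 counts in MNF, which allow up to 0.281 CPM (counts scaled to the library total), Esrp1 was at least 199-fold higher in MNF_ciEPC (edgeR adjusted p = 1.49e-07).

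Esrp2 differed from its paralog in having counts in every library. Its reads cannot be told apart from those of Nfatc3, a protein-coding gene that overlaps it on the opposite strand. Whether its low fibroblast level came from Nfatc3 reads was not tested. Esrp2 was at 5.43 and 18.5 TPM in MNF_ciHep and at 60.4, 98.1 and 71.2 TPM in MEF_ciHep. It was at 26.9 and 26.9 TPM in MNF_ciEPC and at 81.8 and 62.4 TPM in ESC_EPC. In MEF_ciEPC its lowest, median and highest values were 14.2, 28.6 and 51.6 TPM, the lowest again in series 2 at passage 22. It was at 4.61 and 2.75 TPM in MNF, at 2.48, 1.80 and 3.08 TPM in MEF, at 22.4 and 11.2 TPM in ESC and at 38.3 and 47.6 TPM in pHep. MEF_ciHep and ESC_EPC overlapped at the top, above pHep, MEF_ciEPC and MNF_ciEPC; ESC and MNF_ciHep followed by mean, overlapping MEF_ciEPC, and both fibroblast groups lay below the rest. Esrp2 rose 11.2-fold in MEF_ciEPC relative to MEF (log2 3.48 ± 0.47 SE; edgeR adjusted p = 2.4e-05), with a log2 value of 4.15 without MEF replicate 3. It rose 9.30-fold in MNF_ciEPC relative to MNF (log2 3.22 ± 0.53 SE; edgeR adjusted p = 0.000113). Esrp1 held 41.9% and 43.3% of the paired Esrp1 and Esrp2 TPM in MNF_ciHep, 42.3% to 48.0% in MEF_ciHep, 59.7% and 60.6% in MNF_ciEPC and 60.5% and 67.6% in ESC_EPC. In MEF_ciEPC that share was 7.19% in series 2 at passage 22 and 56.9% to 72.5% in the other 9, against 13.3% and 20.8% in ESC and at most 1.10% in pHep.

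Grhl2 encodes a grainyhead-like transcription factor that activates Cdh1 and other junction genes. It was at 2.17 and 8.53 TPM in MNF_ciHep, at 37.6, 39.5 and 43.7 TPM in MEF_ciHep, at 14.8 and 7.86 TPM in MNF_ciEPC and at 30.9 and 22.4 TPM in ESC_EPC. In MEF_ciEPC its lowest, median and highest values were 1.71, 11.8 and 28.4 TPM. It was at 0 in all 5 fibroblast libraries, at 1.44 and 1.65 TPM in ESC and at 1.51 and 0.27 TPM in pHep. The 0 counts allow up to 0.237 CPM in MEF and 0.281 CPM in MNF. MEF_ciHep stood above all other groups, followed by the overlapping series ESC_EPC, MEF_ciEPC, MNF_ciEPC and MNF_ciHep, then ESC and pHep. The lowest MEF_ciEPC value was in series 2 at passage 22, and the other 9 spanned 8.93 to 28.4 TPM. Grhl2 was at least 105.5-fold higher in MEF_ciEPC than in MEF (edgeR adjusted p = 1.51e-07) and at least 64.9-fold higher in MNF_ciEPC than in MNF (edgeR adjusted p = 6.22e-07).

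Ovol2 encodes a zinc-finger repressor that holds down Zeb1 and other mesenchymal genes in epithelia. It was at 2.76 and 6.73 TPM in MNF_ciHep, at 6.99, 11.8 and 13.7 TPM in MEF_ciHep, at 11.4 and 10.97 TPM in MNF_ciEPC and at 34.8 and 53.1 TPM in ESC_EPC. In MEF_ciEPC its lowest, median and highest values were 2.17, 10.6 and 20.8 TPM. It was at 0 in all fibroblast and pHep libraries, with the limits given for Grhl2 in fibroblasts, and at 11.1 and 5.95 TPM in ESC. ESC_EPC lay above every other group, and the 5 other groups with Ovol2 counts overlapped as MNF_ciEPC, MEF_ciEPC, MEF_ciHep, ESC and MNF_ciHep. Ovol2 was at least 26.9-fold higher in MEF_ciEPC than in MEF (edgeR adjusted p = 2.46e-05) and at least 23.6-fold higher in MNF_ciEPC than in MNF (edgeR adjusted p = 4.12e-05).

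Elf3 encodes an ETS-family transcription factor of simple epithelia. It was at 21.9 and 93.8 TPM in MNF_ciHep, at 123, 147 and 147 TPM in MEF_ciHep, at 59.2 and 58.6 TPM in MNF_ciEPC and at 18.3 and 20.1 TPM in ESC_EPC. In MEF_ciEPC its lowest, median and highest values were 74.0, 146 and 317 TPM. It was at 0 in MNF, at 0.32, 0.87 and 0.30 TPM in MEF, at 130.5 and 70.6 TPM in ESC and at 1.27 and 5.23 TPM in pHep. Both ESC_EPC libraries lay below every MEF_ciEPC and MNF_ciEPC library, which held for none of the other 6 genes that rose in both ciEPC groups. MEF_ciEPC, MEF_ciHep and ESC overlapped at the top. MNF_ciEPC lay below those 3 groups, MNF_ciHep overlapped MNF_ciEPC, ESC and MEF_ciEPC, and ESC_EPC, pHep, MEF and MNF followed without overlap. Elf3 rose 242-fold in MEF_ciEPC relative to MEF (log2 7.92 ± 0.63 SE; edgeR adjusted p = 2.23e-07), with a log2 value of 8.68 without MEF replicate 2. It was at least 163-fold higher in MNF_ciEPC than in MNF, whose 0 counts allow up to 0.281 CPM (edgeR adjusted p = 2.14e-06).

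Pathway genes moved beside the 10 genes. All 7 listed repressors of E-cadherin fell in MNF_ciEPC relative to MNF (median log2 -5.94, against 0 for all genes), and 6 of 7 fell in MEF_ciEPC relative to MEF (median -3.80, against 0.12 for all genes). Twist1, a basic helix-loop-helix repressor, fell by 7.35 on the log2 scale in MNF_ciEPC and by 3.80 in MEF_ciEPC. Snai2, the Slug zinc-finger repressor, had log2 values of -5.94 in MNF_ciEPC and -5.40 in MEF_ciEPC, and Zeb1, a zinc-finger homeobox repressor, of -4.5 in MNF_ciEPC and -3.38 in MEF_ciEPC (edgeR adjusted p at most 2.44e-06 for these 3 genes). Snai1 was the member not called in MEF_ciEPC (log2 -0.37 ± 0.37 SE; edgeR adjusted p = 0.437), while it fell by 1.51 in MNF_ciEPC (edgeR adjusted p = 0.00695). Of 22 polarity and surface genes, 21 rose in MNF_ciEPC (median log2 7.20, or 6.25 with genes at 0 counts placed at their bound) and 21 in MEF_ciEPC (median 5.80, or 5.73 at the bounds). Examples are Spint1, a membrane serine protease inhibitor (log2 8.58 in MEF_ciEPC; edgeR adjusted p = 6.13e-09), and Llgl2, a basolateral polarity protein (log2 4.98 in MNF_ciEPC; edgeR adjusted p = 6.61e-09).

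The desmosome list, the spot junctions of epithelia, had 5 of 9 tested genes higher in MNF_ciEPC (median log2 4.93) and 4 of 9 higher in MEF_ciEPC (median 3.55), with none lower. Dsp, the desmosomal plaque protein, rose by a log2 value of 4.49 in MEF_ciEPC (edgeR adjusted p = 3.68e-09). The 13 tested partners of the cadherin-catenin complex were split, with 4 higher and 3 lower in MNF_ciEPC and 3 higher and 3 lower in MEF_ciEPC. Vcl, the actin-linking vinculin, fell by 2.56 in MNF_ciEPC and by 3.21 in MEF_ciEPC on the log2 scale, whereas Plekha7, a protein of apical adherens junctions, had log2 values of 3.55 in MNF_ciEPC and 2.58 in MEF_ciEPC. Of 13 further epithelial regulators, 8 rose and 1 fell in MNF_ciEPC, and 11 rose and none fell in MEF_ciEPC. Among those 11, Klf5, a Krüppel-like factor of epithelia, rose by 3.75 on the log2 scale. Among 11 tested cadherins outside the 10 genes, 3 rose and 4 fell in MNF_ciEPC, and 2 rose and 3 fell in MEF_ciEPC.

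**Figure D3:**
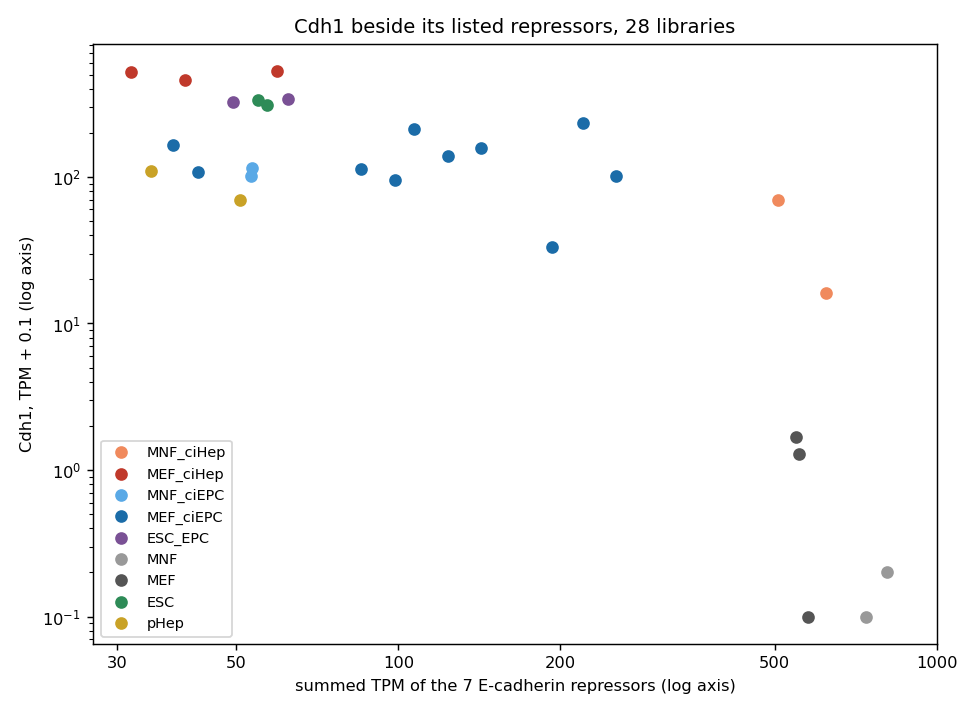
Cdh1 (TPM + 0.1, log axis) against the summed TPM of the 7 listed repressors (log axis), with 1 point per library coloured by group. Fibroblasts sit at the lower right (repressors 548 to 809 TPM, Cdh1 at most 1.59 TPM), MNF_ciHep has repressor sums of 623 and 507 TPM with Cdh1 at 16.0 and 69.8 TPM, and all other libraries lie at repressor sums of 253 TPM or less with Cdh1 at 32.9 TPM or more.

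The origin of the cells was compared next, directly and as a difference of changes. Mouse background differed with origin, here and in the comparisons of origins below, so origin and background cannot be told apart. MNF_ciEPC and MEF_ciEPC also differed in their passages and in the gap between length and effective length. In MNF_ciEPC relative to MEF_ciEPC, none of the 10 genes was called higher (0.971% of all genes were) and none lower (3.49% of all genes) by edgeR's quasi-likelihood test, with 2 of 10 at an unadjusted p under 0.05 and 0 called by DESeq2. The nearest were Elf3, with a log2 difference of -1.39 (95% interval -2.25 to -0.53; edgeR adjusted p = 0.0786), and Cdh2, at -1.08 (-2.05 to -0.11; edgeR adjusted p = 0.216). Here and below, intervals of log2 values use the SE and a normal quantile, and are narrower than intervals matched to the test. Elf3 passed as lower when no low-count filter was used (log2 -1.43; edgeR adjusted p = 0.0219) and when only those groups were fitted (log2 -1.37; edgeR adjusted p = 0.0157). For Cdh1 the interval ran from -1.24 to 0.71, for Cdh11 from -0.59 to 0.60, and for Epcam from -0.96 to 0.58. In MNF relative to MEF likewise 0 of 10 were called higher (8.60% of all genes) and 0 lower (7.81% of all genes), with 1 at an unadjusted p under 0.05 and 0 by DESeq2. Without MEF replicate 3, which has no Cdh1 or Epcam counts, both passed as lower in MNF (Cdh1 log2 -4.08, edgeR adjusted p = 0.0449; Epcam log2 -2.99, edgeR adjusted p = 0.0485). Elf3 passed as lower with limma on log2(TPM + 0.1) (-2.45; limma adjusted p = 0.00873). The change from fibroblast to ciEPC was not called different between origins for any of the 8 genes with an estimate, higher (6.16% of all genes) or lower (8.93% of all genes), with 0 at an unadjusted p under 0.05 and 0 by DESeq2. Grhl2 and Ovol2, at 0 counts in MNF and MEF, had no estimate, and those of Esrp1 and Elf3, at 0 counts in MNF, are no bound. The 95% intervals were -0.14 to 6.65 for Cdh1, -0.35 to 4.82 for Epcam, -1.9 to 0.47 for Cdh2, -1.02 to 2.45 for Cdh3, -0.9 to 0.7 for Cdh11 and -1.71 to 1.19 for Esrp2. Wide intervals do not show that the origins changed alike.

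ESC_EPC, derived from embryonic stem cells, was compared with ESC, whose gap between length and effective length was smaller. Relative to ESC, 6 of the 10 genes rose (18.6% of all genes did) and 1 fell (14.7% of all genes). The gene with the largest change was Esrp1, 49.8-fold higher (log2 5.64 ± 0.45 SE; edgeR adjusted p = 5.77e-07), followed by Cdh2, 27.7-fold higher (log2 4.79 ± 0.52 SE; edgeR adjusted p = 5.13e-06), and Grhl2, 19.6-fold higher (log2 4.29 ± 0.39 SE; edgeR adjusted p = 4.46e-06). Esrp2 rose 5.46-fold, Ovol2 4.10-fold and Epcam 3.11-fold, while Elf3 fell 5.68-fold (log2 -2.51 ± 0.48 SE; edgeR adjusted p = 0.000789). Cdh1 was already at 335 and 308 TPM in ESC and its difference of -0.06 had a 95% interval of -1.04 to 0.91; Cdh3 (-1.10 to 1.17) and Cdh11 (-1 to 0.2) were not called either. Without ESC replicate 2, Epcam (log2 1.43; edgeR adjusted p = 0.0635) and Ovol2 (log2 1.6; edgeR adjusted p = 0.0769) lost their calls and Grhl2 stood at 4.95. Epcam also lost its call with limma on log2(TPM + 0.1) (log2 1.81; limma adjusted p = 0.147). Of the 7 repressors 3 rose and 2 fell (median log2 2.38, against 0 for all genes), with Snai2 at a log2 value of 3.40, Twist1 at 2.91 and Zeb1 at -1.91. Of the polarity and surface genes 16 of 22 rose and none fell (median 2.66, or 2.51 at the bounds), among them Crb3, an apical polarity protein (log2 3.10), and of the desmosome genes 6 of 9 rose and 1 fell (median 3.56).

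Set against ESC_EPC, the fibroblast-derived ciEPC had lower Cdh2 and Cdh3 and higher Elf3. In MEF_ciEPC relative to ESC_EPC, 1 gene was called higher (16.8% of all genes) and 6 lower (14.9% of all genes). In MNF_ciEPC relative to ESC_EPC, 1 was called higher (16.1% of all genes) and 7 lower (19.3% of all genes); both comparisons share the ESC_EPC libraries. Cdh2 was 13.8-fold lower in MEF_ciEPC (log2 -3.79 ± 0.44 SE; edgeR adjusted p = 9.89e-06) and 29.3-fold lower in MNF_ciEPC (log2 -4.87 ± 0.50 SE; edgeR adjusted p = 2.36e-06). Cdh3 was 12.3-fold lower in MEF_ciEPC (log2 -3.62 ± 0.66 SE; edgeR adjusted p = 0.000461) and 10.4-fold lower in MNF_ciEPC (log2 -3.38 ± 0.68 SE; edgeR adjusted p = 0.000827). For MEF_ciEPC the Cdh3 value was -5.37 without the series 2 library of passage 22, -2.78 without series 1 and -4.90 without series 2. Elf3 was 7.86-fold higher in MEF_ciEPC (edgeR adjusted p = 0.000211) and 3.00-fold higher in MNF_ciEPC (edgeR adjusted p = 0.0121), the second losing its call without ESC_EPC replicate 1 (edgeR adjusted p = 0.0686).

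Most of the smaller differences from ESC_EPC lost their call when 1 sample was left out. Cdh1 was 2.63-fold lower in MEF_ciEPC (edgeR adjusted p = 0.0361) and 3.15-fold lower in MNF_ciEPC (edgeR adjusted p = 0.0143), but leaving out any of the 4 samples of either comparison ended its call (edgeR adjusted p 0.111 to 0.122 for MEF_ciEPC and 0.0551 to 0.104 for MNF_ciEPC). Esrp1 was 2.44-fold lower in MEF_ciEPC (edgeR adjusted p = 0.00655) and 3.39-fold lower in MNF_ciEPC (edgeR adjusted p = 0.00075). The MEF_ciEPC call of Esrp1 ended with the 10 libraries kept separate (edgeR adjusted p = 0.0735), and with limma on log2(TPM + 0.1) the Esrp1 calls ended in MEF_ciEPC (limma adjusted p = 0.267) and in MNF_ciEPC (0.11). That limma setting also ended the calls of Cdh1 (0.3 in MEF_ciEPC, 0.183 in MNF_ciEPC) and, in MNF_ciEPC, of Grhl2 (0.156) and Elf3 (0.0558). Esrp2 was 2.47-fold lower in MEF_ciEPC and 2.72-fold lower in MNF_ciEPC, and lost its call without series 2, ESC_EPC replicate 1 or ESC_EPC replicate 2 in MEF_ciEPC (edgeR adjusted p 0.051 to 0.123) and without 3 of the 4 samples in MNF_ciEPC (0.056 to 0.0895). Ovol2 was 3.56-fold lower in MEF_ciEPC and 3.29-fold lower in MNF_ciEPC, and lost its call without ESC_EPC replicate 2 in MEF_ciEPC (edgeR adjusted p = 0.0663) and without 3 of the 4 samples in MNF_ciEPC (0.0712 to 0.0826). Grhl2 was 2.49-fold lower in MNF_ciEPC, a call that ended without MNF_ciEPC replicate 2 (edgeR adjusted p = 0.0587), and under 2-fold lower in MEF_ciEPC (log2 -0.87; edgeR adjusted p = 0.0332). Epcam did not pass in either, with 95% intervals of -0.78 to 0.76 in MEF_ciEPC and -0.97 to 0.58 in MNF_ciEPC, nor did Cdh11, with intervals of -0.85 to 0.34 in MEF_ciEPC and -0.85 to 0.35 in MNF_ciEPC.

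The hepatic step gave unlike outcomes in cells of the 2 origins. In MEF_ciHep relative to MEF_ciEPC, 4 of the 10 genes rose (17.8% of all genes did) and none fell (14.8% of all genes). Cdh1 rose 4.67-fold (log2 2.22 ± 0.49 SE; edgeR adjusted p = 0.00174), Cdh3 10.6-fold (3.41 ± 0.64 SE; edgeR adjusted p = 0.000452), Esrp2 3.31-fold (1.73 ± 0.40 SE; edgeR adjusted p = 0.00245) and Grhl2 3.25-fold (1.70 ± 0.29 SE; edgeR adjusted p = 0.000406). The Cdh3 value was 5.16 without the series 2 library of passage 22, 2.59 without series 1, 4.70 without series 2 and 2.83 without MEF_ciHep replicate 3. Epcam did not pass (log2 0.80, 95% interval 0.08 to 1.52; edgeR adjusted p = 0.0852) and did so without MEF_ciHep replicate 2 (1.02; edgeR adjusted p = 0.0397). Cdh2 did not pass (0.79, -0.02 to 1.59); it stood at -0.04 without MEF_ciHep replicate 2 and was called at 1.14 without replicate 3 (edgeR adjusted p = 0.0195). Cdh11 (-1.17 to -0.07), Esrp1 (-0.25 to 0.95) and Elf3 (-0.63 to 0.91) were not called. With limma on log2(TPM + 0.1) the calls of Cdh1 (1.91; limma adjusted p = 0.0845) and Grhl2 (1.47; 0.0718) ended.

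In MNF_ciHep relative to MNF_ciEPC, 2 of the 10 genes rose (19.5% of all genes did) and 2 fell (10.8% of all genes). The mesenchymal cadherins rose, Cdh2 9.58-fold (log2 3.26 ± 0.50 SE; edgeR adjusted p = 0.00013) and Cdh11 6.24-fold (2.64 ± 0.32 SE; edgeR adjusted p = 1.9e-05). Esrp1 fell 4.05-fold (-2.02 ± 0.39 SE; edgeR adjusted p = 0.00101) and Grhl2 6.44-fold (-2.69 ± 0.41 SE; edgeR adjusted p = 0.000273). Grhl2 rested on 7 and 8 counts in MNF_ciHep. In TPM its groups overlapped, with 2.17 and 8.53 in MNF_ciHep and 14.8 and 7.86 in MNF_ciEPC. The MNF_ciHep replicates lay apart, with the lower Cdh1, Epcam and Elf3 and the higher Cdh11 in replicate 1. Without replicate 1, Cdh2 stood at 2.23, Cdh11 at 1.66 and Esrp1 at -1.41 on the log2 scale. In that fit Cdh1 stood at -0.66, Esrp2 at -0.28 and Elf3 at 0.78. Without replicate 2, Esrp1 stood at -3.13 and Grhl2 at -3.32, and Cdh1 (-2.68; edgeR adjusted p = 0.00139), Epcam (-1.36; 0.022), Esrp2 (-1.98; 0.00998) and Elf3 (-1.27; 0.0198) were called lower as well. With both replicates Cdh1 did not pass (-1.25, 95% interval -2.27 to -0.23; edgeR adjusted p = 0.0658), nor did Epcam (-1.22 to 0.36) or Esrp2 (-1.80 to 0.07). Cdh1 passed as lower without a low-count filter (-1.35; edgeR adjusted p = 0.0189). With limma on log2(TPM + 1), Cdh1 (-1.65; limma adjusted p = 0.0142), Esrp2 (-1.32; 0.0245) and Ovol2 (-1.18; 0.0297) passed and Grhl2 did not (-1.11; 0.0667). The fibroblast markers of these libraries summed to 4514 and 1795 TPM in MNF_ciHep, against 58.3 and 37.2 TPM in MNF_ciEPC, and 5 keratinocyte markers to 142 and 132 TPM in MNF_ciHep, against 1.66 and 8.36 TPM in MNF_ciEPC. The part of either list in these differences was not tested.

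**Figure D4:**
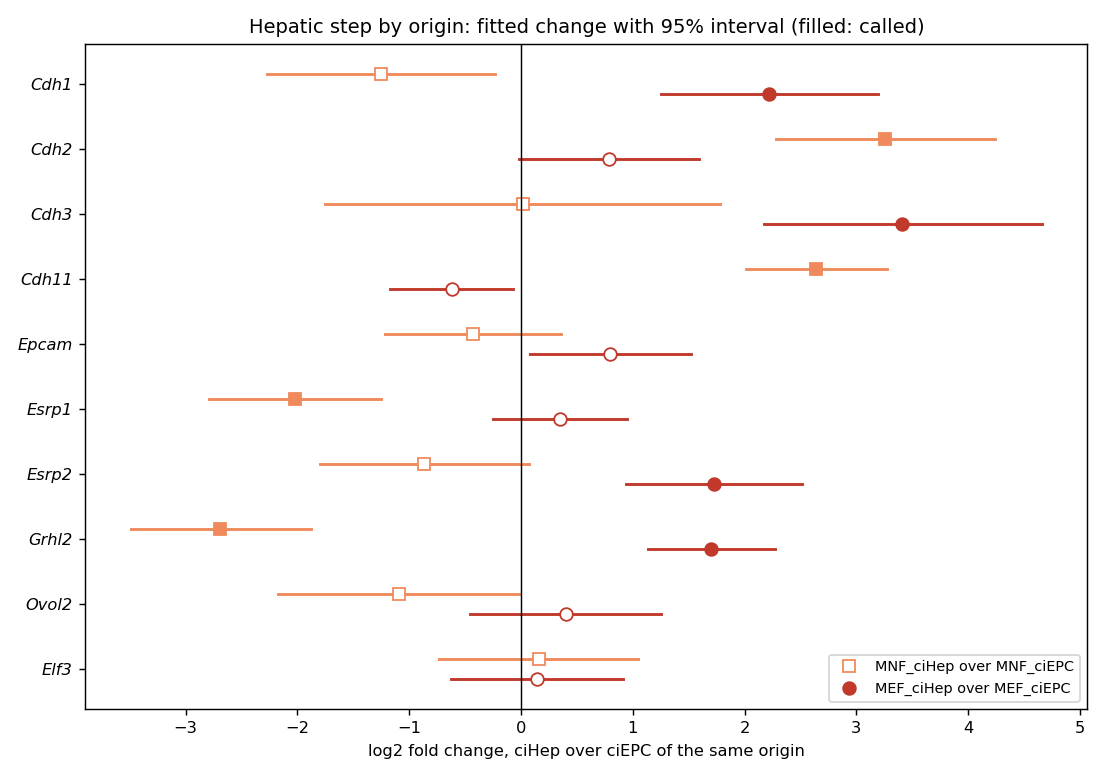
Fitted log2 fold change of each of the 10 genes between ciHep and ciEPC of the same origin, with its 95% interval, for the neonatal dermal (MNF) and the embryonic (MEF) origin, filled where called. The intervals use a normal quantile and are narrower than intervals matched to the test. Cdh1 lies at -1.25 for MNF and 2.22 for MEF, Grhl2 at -2.69 for MNF and 1.70 for MEF, and Cdh11 at 2.64 for MNF and -0.62 for MEF.

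The difference between both hepatic steps was tested itself, as the change in MNF minus the change in MEF. It was called positive for 2 of the 10 genes (17.7% of all genes) and negative for 5 (12% of all genes). The positive genes were Cdh11 (3.26 ± 0.42 SE; edgeR adjusted p = 4.44e-05) and Cdh2 (2.47 ± 0.64 SE; edgeR adjusted p = 0.00764). The negative genes were Grhl2 (-4.39 ± 0.50 SE; edgeR adjusted p = 4.73e-05), Cdh1 (-3.47 ± 0.71 SE; edgeR adjusted p = 0.00168), Cdh3 (-3.39 ± 1.05 SE; edgeR adjusted p = 0.0209), Esrp2 (-2.59 ± 0.62 SE; edgeR adjusted p = 0.00466) and Esrp1 (-2.37 ± 0.50 SE; edgeR adjusted p = 0.00232). Grhl2, the largest of these, rested on 7 and 8 counts in MNF_ciHep. Without MNF_ciHep replicate 1 the calls of Cdh2 (1.56; edgeR adjusted p = 0.104) and Cdh3 (-2.49; edgeR adjusted p = 0.134) ended, and Cdh1, Cdh11, Esrp1 and Esrp2 stood at -2.74, 2.41, -1.63 and -1.88. Without MNF_ciHep replicate 2 they stood at -4.77 for Cdh1, -3.35 for Esrp1, -3.57 for Esrp2 and -4.48 for Cdh3, and Epcam was called at -2.02 (edgeR adjusted p = 0.00958). Cdh3 also lost its call without series 1 (-2.64; edgeR adjusted p = 0.0622) or either MNF_ciEPC replicate (0.0613 and 0.0538), and was -4.72 without series 2 and -5.15 without the series 2 library of passage 22. With the 10 MEF_ciEPC libraries kept separate, Cdh3 (edgeR adjusted p = 0.158) and Esrp1 (0.0988) lost their calls, with only the compared groups fitted Cdh2 (0.0564) and Cdh3 (0.0635) did, and with limma on log2(TPM + 0.1) Esrp1 did (limma adjusted p = 0.0876). Without MEF_ciHep replicate 2, Cdh2 stood at 3.30 and Epcam passed at -1.45 (edgeR adjusted p = 0.0494). Libraries of both ciHep groups and of MEF_ciEPC had about the same gap between length and effective length, while MNF_ciEPC had a larger one.

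The listed pathway genes parted in the same step. In MNF_ciHep relative to MNF_ciEPC all 7 repressors rose (median log2 6.28, against 0.05 for all genes), whereas in MEF_ciHep relative to MEF_ciEPC none rose and 4 fell (median -1.53, against -0.08). Twist1 rose 146-fold in MNF_ciHep (log2 7.19; edgeR adjusted p = 3.24e-08) and Snai2 rose 77.6-fold (log2 6.28; edgeR adjusted p = 1.8e-06). In MEF_ciHep, Zeb1 fell by 2.90 on the log2 scale (edgeR adjusted p = 0.000154). Repressor TPM summed to 623 and 507 in MNF_ciHep, against 53.5 and 53.3 in MNF_ciEPC, and to 31.9 to 59.6 in MEF_ciHep, against 38.2 to 253 in MEF_ciEPC. Of the 22 polarity and surface genes, 15 fell and none rose in MNF_ciHep (median -1.84), and 16 rose and none fell in MEF_ciHep (median 1.81). Llgl2 fell by 2.57 in MNF_ciHep (edgeR adjusted p = 1.09e-06) and had a log2 value of 1.65 in MEF_ciHep. Desmosome genes counted 1 higher and 3 lower of 9 in MNF_ciHep, and 6 higher and none lower in MEF_ciHep, where Dsp had a log2 value of 3.34 and Perp, a desmosomal membrane protein, 3.88. Of the catenin complex partners 2 rose and 2 fell in MNF_ciHep, and 6 rose and 3 fell in MEF_ciHep, where Jup, the junctional plakoglobin, had a log2 value of 2.63 (edgeR adjusted p = 1.73e-07).

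Compared with one another, MNF_ciHep had 2 of the 10 genes higher than MEF_ciHep (17.8% of all genes) and 8 lower (16.1% of all genes). Cdh11 was 9.64-fold higher (log2 3.27 ± 0.29 SE; edgeR adjusted p = 6.36e-07) and Cdh2 2.62-fold higher (1.39 ± 0.40 SE; edgeR adjusted p = 0.0108). Grhl2 was 28.5-fold lower (-4.83 ± 0.40 SE; edgeR adjusted p = 1.67e-06), Cdh1 13.3-fold lower (-3.74 ± 0.54 SE; edgeR adjusted p = 5.73e-05), Cdh3 8.93-fold, Esrp1 7.19-fold and Esrp2 6.65-fold lower. The Grhl2 value rested on 7 and 8 counts in MNF_ciHep. In TPM the gap was smaller, with means of 5.35 in MNF_ciHep and 40.3 in MEF_ciHep. Epcam (2.69-fold; edgeR adjusted p = 0.00655), Ovol2 (2.60-fold; 0.0481) and Elf3 (2.59-fold; 0.0171) were lower by less. Without MNF_ciHep replicate 1 the calls of Cdh2, Cdh3, Epcam, Ovol2 and Elf3 ended (edgeR adjusted p 0.531, 0.073, 0.105, 0.374 and 0.176), and Cdh1, Cdh11, Esrp1 and Esrp2 stood at -3.03, 2.40, -2.12 and -2.03. Without replicate 2, Cdh1 stood at -5.05, Cdh3 at -4.28, Epcam at -2.23, Esrp1 at -3.84, Esrp2 at -3.73, Ovol2 at -2.05 and Elf3 at -2.69. Ovol2 also lost its call without MEF_ciHep replicate 2 or 3 (edgeR adjusted p = 0.0884 and 0.109) and Cdh2 stood at 2.21 without MEF_ciHep replicate 2. With only those groups fitted, Cdh2 (edgeR adjusted p = 0.105), Ovol2 (0.0898) and Elf3 (0.0794) were not called. Ovol2 was not called without a low-count filter either (0.0656), and with limma on log2(TPM + 0.1) neither Epcam (limma adjusted p = 0.196) nor Ovol2 (0.0596) was. All 22 polarity and surface genes were lower in MNF_ciHep (median log2 -3.86, against 0.04 for all genes) and all 7 repressors higher (median 5.09).

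Both ciHep groups had lower Cdh2 and higher Epcam, Esrp1, Ovol2 and Elf3 than primary hepatocytes. In MEF_ciHep relative to pHep, 7 genes were higher (15.1% of all genes) and 1 lower (10.8% of all genes). Epcam was 199-fold higher (log2 7.64 ± 0.62 SE; edgeR adjusted p = 3.76e-07), Grhl2 76.2-fold, Elf3 48.0-fold, Cdh3 29.8-fold and Cdh1 5.14-fold higher (2.36 ± 0.50 SE; edgeR adjusted p = 0.00177). For Esrp1 the ratio was 503, with an exact 95% counting interval of 90.2 to 19900 (edgeR adjusted p = 5.74e-07), and Ovol2 was at least 13.4-fold higher, its 0 counts in pHep allowing up to 0.631 CPM. Cdh2 was 12.9-fold lower (-3.69 ± 0.39 SE; edgeR adjusted p = 4.1e-06). Esrp2 (95% interval -0.06 to 1.5; edgeR adjusted p = 0.178) and Cdh11 (0.06 to 1.26; edgeR adjusted p = 0.105) were not called. Without pHep replicate 1 the log2 values were 2.94 for Cdh1, 7.70 for Esrp1, 7.40 for Grhl2 and 4.86 for Elf3, and without pHep replicate 2 they were 5.58 for Cdh3 and 6.80 for Elf3, with Esrp1 left at 0 counts in pHep. Cdh2 stood at -4.52 without MEF_ciHep replicate 2. Among the listed genes, 17 of 22 polarity and surface genes were higher in MEF_ciHep and none lower (median 2.24, against 0.01 for all genes), and 10 of 13 further epithelial regulators were higher and 1 lower (median 3.29).

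In MNF_ciHep relative to pHep, 5 genes were higher (18.4% of all genes) and 3 lower (13.4% of all genes); both comparisons share the pHep libraries. Epcam was 74.2-fold higher (log2 6.21 ± 0.63 SE; edgeR adjusted p = 3.1e-06), Elf3 18.5-fold, Cdh11 15.2-fold and Ovol2 at least 4.62-fold higher. For Esrp1 the ratio was 59.7, with an exact 95% counting interval of 10.4 to 2393; its fitted log2 value of 5.90 was 6.62 and 4.90 without MNF_ciHep replicate 1 and 2, 4.85 without pHep replicate 1, and 9.20 without pHep replicate 2, which leaves 0 counts. Elf3 stood at 5.42 without pHep replicate 2. Grhl2 (log2 1.42, 95% interval 0.15 to 2.69; edgeR adjusted p = 0.0976) and Cdh3 (1.74; edgeR adjusted p = 0.291) were not called, and Grhl2 passed as higher with limma on log2(TPM + 1) (limma adjusted p = 0.00934). Cdh2 was 4.94-fold lower (-2.30 ± 0.42 SE; edgeR adjusted p = 0.000533), Esrp2 4.04-fold lower (edgeR adjusted p = 0.0037) and Cdh1 2.60-fold lower (-1.38 ± 0.52 SE; edgeR adjusted p = 0.0452). Cdh1 lost its call without MNF_ciHep replicate 1 (-0.68; edgeR adjusted p = 0.301) or pHep replicate 1 (-0.81; 0.301), and Esrp2 without MNF_ciHep replicate 1 (-1.32; 0.0573), where Cdh2 stood at -3.22 and Cdh11 at 3.06. With only those groups fitted, Cdh1 (edgeR adjusted p = 0.196) and Esrp2 (0.0574) also lost their calls. Without MNF_ciHep replicate 2, Cdh1 stood at -2.71, Epcam at 5.39, Esrp2 at -3.02 and Elf3 at 2.89. Of the repressors 6 of 7 were higher in MNF_ciHep than in pHep (median 3.20, against 0.11 for all genes), and of the polarity and surface genes 4 were higher and 12 of 22 lower (median -1.61).

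Across the whole route, MEF_ciHep relative to MEF had 7 genes higher (22.9% of all genes) and 3 lower (19.3% of all genes), and MNF_ciHep relative to MNF had 7 higher (16.2% of all genes) and 2 lower (11.6% of all genes). Cdh1 was 819-fold higher in MEF_ciHep, and for MNF_ciHep to MNF the ratio was 725, with an exact 95% counting interval of 129 to 28710. Epcam was 333-fold higher in MEF_ciHep, with a ratio of 653 (180.1 to 5405) in MNF_ciHep. Against the 0 counts of fibroblasts, Grhl2 was at least 345-fold higher in MEF_ciHep and at least 9.56-fold higher in MNF_ciHep, and Ovol2 at least 35.1-fold in MEF_ciHep and 10.2-fold in MNF_ciHep. Elf3 was 267-fold higher in MEF_ciHep, and at least 152-fold higher in MNF_ciHep. Cdh3 fell by 1.70 in MEF_ciHep and by 4.38 in MNF_ciHep on the log2 scale. Cdh2 fell by 3.84 in MEF_ciHep and by 2.08 in MNF_ciHep on the log2 scale. Cdh11, which fell by 4.06 in MEF_ciHep, was not called in MNF_ciHep (-0.90; edgeR adjusted p = 0.029, under 2-fold) and passed without MNF_ciHep replicate 1 (-1.79; edgeR adjusted p = 7.43e-05) and with limma on log2(TPM + 1) (-1.11; limma adjusted p = 0.0171). Esrp2 rose by 2.35 in MNF_ciHep (edgeR adjusted p = 0.00495), a call that ended without MNF replicate 2 (2.04; edgeR adjusted p = 0.0527) or MNF_ciHep replicate 2 (1.33; edgeR adjusted p = 0.117). Without MNF_ciHep replicate 1, the fitted log2 values of Cdh1, Cdh2, Cdh3 and Esrp2 were 10.14, -3.02, -3.52 and 3.03, and without replicate 2, Cdh1, Cdh3 and Epcam stood at 8.12, -5.51 and 8.55, against 9.46 for Cdh1, -4.38 for Cdh3 and 9.38 for Epcam with both. Without MNF replicate 1, which leaves Cdh1 at 0 counts in MNF, Cdh1 stood at 11.75 and Cdh3 at -3.77, and without MNF replicate 2, Cdh1 stood at 8.59. In MEF_ciHep relative to MEF, Cdh1, Esrp1 and Elf3 stood at 10.93, 9.30 and 8.82 without MEF replicate 2, Esrp2 at 5.87 without MEF replicate 3 and Cdh2 at -4.66 without MEF_ciHep replicate 2.

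Within MEF_ciEPC, series 1 spanned passages 2 to 22 and series 2 passages 1 to 22. Series 1 had Cdh1 at 157, 108.1, 114, 212, 234 and 32.9 TPM at passages 2, 3, 4, 6, 10 and 22, and series 2 had 94.9, 139, 101 and 165 TPM at passages 1, 5, 10 and 22. Epcam was at 229, 229, 205, 217, 392.5 and 164 TPM in series 1 and at 306, 477, 235 and 62.6 TPM in series 2. Ovol2 was at 20.8, 12.7, 10.4, 17.9, 9.57 and 2.17 TPM in series 1 and at 10.7, 6.59, 15.7 and 3.37 TPM in series 2, so its lowest value in each series was at passage 22. Those lowest values rested on 4 counts in series 1 and 5 in series 2. Cdh2 was at 9.10, 5.78, 3.66, 2, 0.40 and 5.10 TPM in series 1, lower at each step up to passage 10 and higher again at passage 22. In series 2 it was at 7.99, 2.44, 2.04 and 5.64 TPM, where the higher last value is that of the library with pluripotent markers. At passage 10, Cdh2 had 2 counts in series 1 and 10 in series 2. A trend per doubling of passage, with series as a term, was tested for 9 of the 10 genes, since Cdh3 did not pass the low-count filter. None was called higher (0.00807% of 12390 genes) or lower (0.0161% of those genes) by edgeR's quasi-likelihood test at an adjusted p under 0.05 with no fold threshold, with 0 at an unadjusted p under 0.05 and 0 called by DESeq2, which put Ovol2 at an unadjusted p of 0.0328. The steepest slopes were -0.39 ± 0.19 log2 units per doubling for Ovol2 (SE; edgeR adjusted p = 0.452) and -0.36 ± 0.22 for Grhl2 (edgeR adjusted p = 0.55). Without the series 2 library of passage 22, Epcam's slope was 0.01, against -0.18 with it, and that of Esrp1 was 0.12, against -0.13.

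**Figure D5:**
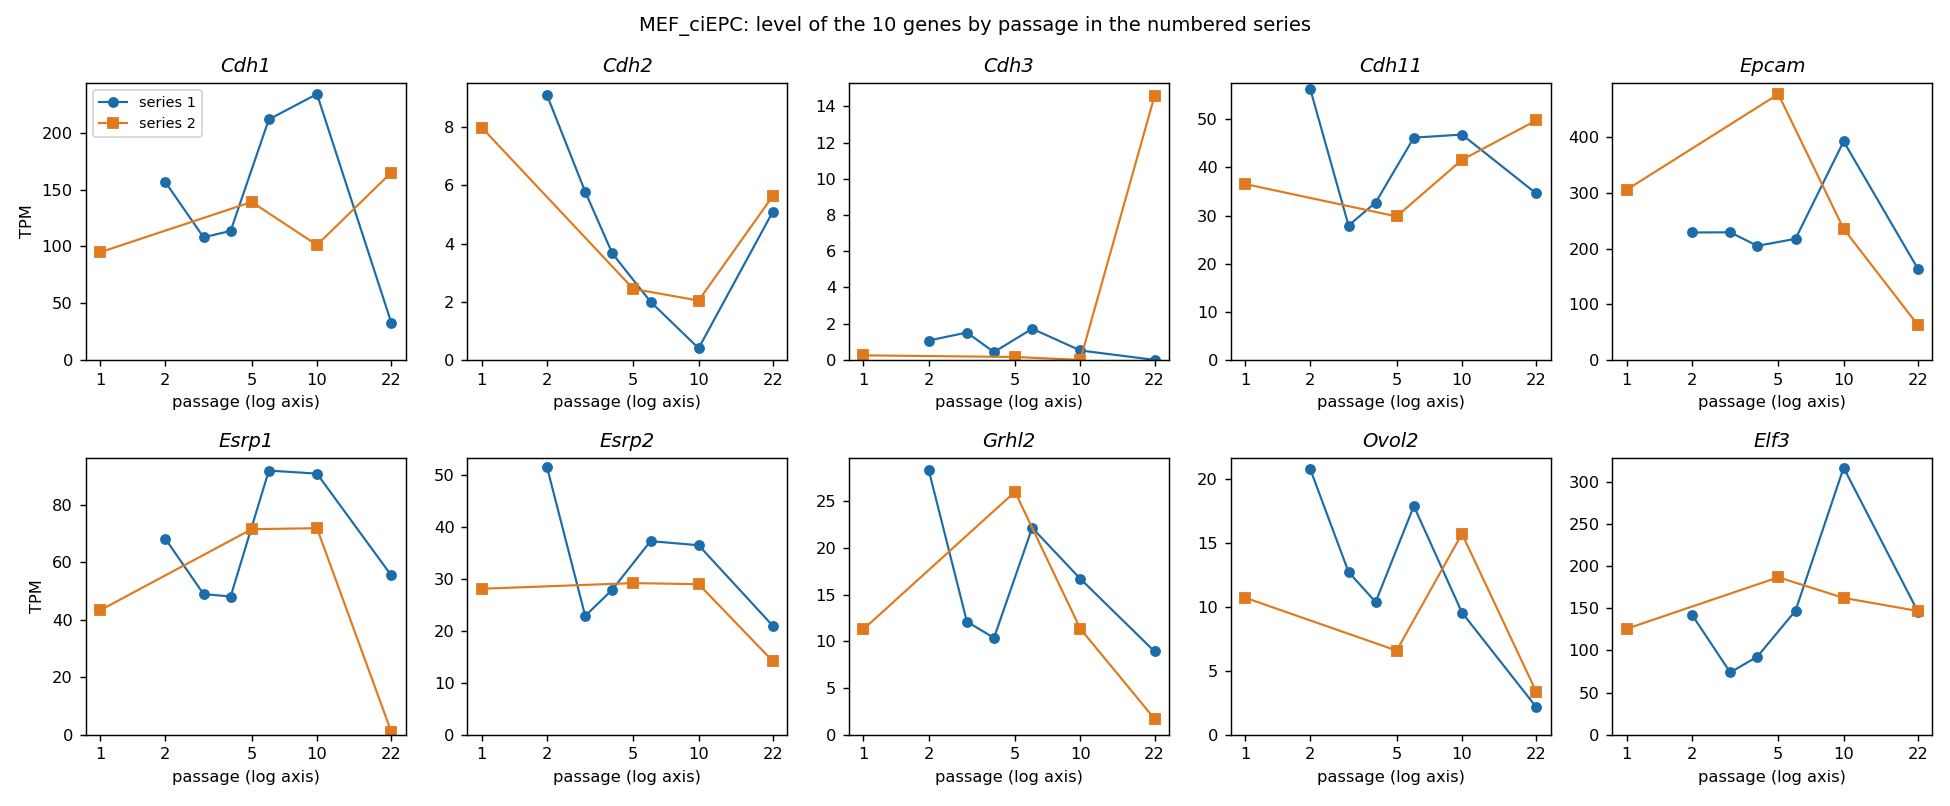
TPM of the 10 genes against passage (log axis) in the MEF_ciEPC libraries, with 1 line for each numbered series. In series 2 the library of passage 22 has Cdh3 at 14.6 TPM and Esrp1 at 1.10 TPM, outside the range of the other 9 libraries, while Cdh1 (165 TPM) and Elf3 (147 TPM) lie within it.

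The series 2 library of passage 22, with the markers given above, showed which of the 10 genes parted from the rest. Cdh3 lay above the range of the other 9 libraries (14.6 TPM, against 0 to 1.72 TPM), and Epcam (62.6, against 164 to 477 TPM), Esrp1 (1.10, against 43.3 to 91.8 TPM), Esrp2 (14.2, against 21.0 to 51.6 TPM) and Grhl2 (1.71, against 8.93 to 28.4 TPM) lay below it. Cdh1, Cdh2, Cdh11, Ovol2 and Elf3 lay within it. The ESC libraries, for comparison, held 15.3 and 26.2 TPM of Cdh3, 92.9 and 62.3 TPM of Epcam, 3.45 and 2.94 TPM of Esrp1, 22.4 and 11.2 TPM of Esrp2, and 1.44 and 1.65 TPM of Grhl2. Leaving it out ended or added no call of the 10 genes in any comparison.

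Across the 28 libraries, which fall into 9 groups and are not independent points, the log2 TPM profile of each gene was correlated with those of 16543 genes, as a description. Most like Cdh1 were Llgl2 (r = 0.959), Dsg2, a desmosomal cadherin (0.944), and Grb7 (0.929). Most like Epcam were Tnk1 (0.965), Spint1 (0.960) and Kit (0.945), and Kit was also the nearest to Elf3 (0.963), ahead of Aqp3 and Gpx2. Esrp1 was nearest to Rab15 (0.960) and Eomes (0.939), Esrp2 to Sowahb (0.952) and Grb7 (0.929), Grhl2 to Pga5 (0.957) and Podxl (0.946), and Ovol2 to Ap1m2 (0.938) and Map3k9 (0.934). Among the cadherins that fell in the ciEPC groups, Cdh11 was nearest to Hoxc6 (0.945) and Camk2g (0.941), Cdh2 to Nrp1 (0.925) and Rsu1 (0.916), and Cdh3 to Ski (0.881) and Myh10 (0.879). Within the set, Grhl2 and Esrp1 ran together (r = 0.951), as did Epcam and Elf3 (0.928), while Cdh1 and Cdh11 ran opposite (-0.85), as did Elf3 and Cdh2 (-0.89).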

How the data were processed

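The samples were 28 mouse RNA-seq libraries of Trizol-extracted RNA made with an Illumina TruSeq kit, per the labels' protocols. The authors deposited expected counts per gene and TPM values, with gene lengths and effective lengths; per the submitters' processing notes these involved RSEM 1.2.4 and the mm10 build, and the aligner, annotation and strand were not given in the sources used here. Levels and cadherin shares were computed from the deposited TPM values, which are scaled within a library.

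Expected counts were rounded to whole numbers and tested with edgeR 4.0.16 in R 4.3.3: TMM scaling, filterByExpr at a minimum count of 10, and glmQLFit and glmQLFTest over all 9 groups. The 10 MEF_ciEPC libraries were summed by series, so 20 samples entered the fit and 16061 genes were tested (common biological coefficient of variation 0.249). All 10 genes passed the filter. Calls needed a Benjamini-Hochberg adjusted p under 0.05 over all tested genes and a 2-fold change. The SE of an edgeR log2 value was its absolute size divided by the square root of the quasi-likelihood F statistic. The 95% intervals of log2 values were the value plus and minus the SE times a normal quantile. They do not allow for the few degrees of freedom of the test, so they are too narrow and can leave out 0 where its unadjusted p is over 0.05. Where a group had 0 counts, its sum was set to 3 for a lower bound of the fold; where it had 1 to 3, the ratio has an exact 95% (Clopper-Pearson) interval. The passage trend was fitted over the 10 libraries. DESeq2 1.42.0, limma 3.58.1 on log2(TPM + 1) and log2(TPM + 0.1), other scalings, filters and sample sets, a replicate block and each replicate left out were the alternatives. The test was tried on simulated data first. Similar genes were ranked by Pearson's r of log2(TPM + 1).

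The 10 genes and the lists were chosen with earlier results of these data known. The 10 genes are named in full, and list genes up to 4 per list with the smallest adjusted p in a comparison; Snai1, Perp and others beyond that were named after their values were seen. Replicate numbers are shared between groups. Over 73 pairs of same-numbered samples, correlations of deviations from the group means were -0.163 to 0.085 and none was above 0.1, so the numbers were not taken to pair samples. A gene of the regulator list is not reported here.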

Additional observations from a re-analysis of the deposited data

Results flagged for a closer look

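Of 10 genes examined in the 10 MEF_ciEPC libraries, 2 had a library far from the rest, by Dixon's ratio of its gap to the next value over the whole range. Chance gives about 1 in 20 such groups for independent, normally distributed values, which passages of a numbered series may not be. Cdh3 was at 14.59 TPM in series 2 at passage 22, against at most 1.72 TPM in the other 9 libraries. Elf3 was at 316.56 TPM in series 1 at passage 10, against 187 TPM in the next highest library.

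The hepatic step differed between origins by a test of the difference itself, the log2 change in MNF minus that in MEF. Cdh11 (3.26) and Cdh2 (2.47) were positive, and Grhl2 (-4.39), Cdh1 (-3.47), Cdh3 (-3.39), Esrp2 (-2.59) and Esrp1 (-2.37) were negative. The calls of Cdh2, Cdh3 and Esrp1 ended in some of the other settings given above. Grhl2 rested on 7 and 8 counts in MNF_ciHep. The MNF_ciHep libraries went against their label in hepatocyte markers, and origin cannot be told apart from mouse background.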

How the results depend on the processing

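Of 34 counts of the 10 genes called, 11 values moved by over 1.5 times under settings other than leaving out replicates, and 289 did not. Genes called lower became 1 for MNF_ciEPC relative to MEF_ciEPC without a low-count filter or with only the compared groups fitted, 1 for MNF relative to MEF and 4 for MNF_ciEPC relative to ESC_EPC with limma on log2(TPM + 0.1), 4 for MNF_ciHep relative to MNF_ciEPC with limma on log2(TPM + 1), 1 for MNF_ciHep relative to pHep with only the compared groups fitted, and 3 for the difference of hepatic steps with the 10 MEF_ciEPC libraries kept separate. Genes called higher became 0 for MNF_ciEPC relative to ESC_EPC and 2 for MEF_ciHep relative to MEF_ciEPC with limma on log2(TPM + 0.1), and 1 both for MNF_ciHep relative to MEF_ciHep and for the difference of hepatic steps with only the compared groups fitted. Leaving out each replicate gave 0 to 2 lower for MNF relative to MEF, 3 to 6 for MEF_ciEPC and 3 to 5 for MNF_ciEPC relative to ESC_EPC, 2 to 6 for MNF_ciHep relative to MNF_ciEPC, 1 to 3 relative to pHep and 4 to 8 relative to MEF_ciHep. It gave 0 to 1 higher for MNF_ciEPC relative to ESC_EPC, and 1 to 2 for MNF_ciHep relative to MEF_ciHep and for the difference of hepatic steps.

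Of the values of single genes, Cdh2 in MEF_ciHep relative to MEF_ciEPC turned to -0.04 without MEF_ciHep replicate 2 (1.14 without replicate 3), and Elf3 in MNF_ciHep relative to MNF_ciEPC, 0.16 and not called, turned to -0.36 and -0.38 with limma at pseudocounts 1 and 0.1 and to -1.27 without MNF_ciHep replicate 2 (0.78 without replicate 1). The cause was not tested. Over all genes, the MNF_ciEPC to MEF_ciEPC counts were the least stable (41 to 276 higher, against 156, and 58 to 902 lower, against 560). The fit with a replicate block ended 3 calls: Cdh1 in MEF_ciEPC relative to ESC_EPC (log2 -1.39; edgeR adjusted p = 0.0528), Cdh1 in MNF_ciHep relative to pHep (-1.41; 0.0643) and Ovol2 in MNF_ciHep relative to MEF_ciHep (-1.20; 0.137). Most groups held 2 libraries, and the MNF_ciHep replicates lay apart.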
